A study of Mus musculus with 10 samples.

Results

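The myogenic transcription factors and the Id proteins were followed in calf muscle of dystrophic and normal mice. All probe sets whose annotation names 1 gene among Myod1, Myog, Myf5, Myf6, Pax7, Mef2a, Mef2c, Id1, Id2 and Id3 were taken, which gave 13 of the 12422 probe sets on the array and covered 9 of the 10 genes. Pax7 had no such probe set and was not analysed here. The 10 arrays measured total RNA of gastrocnemius, a calf muscle, in males of 16 weeks, with 5 arrays of mdx mice and 5 of normal mice, here called control. The mdx strain carries a spontaneous mutation of the dystrophin gene Dmd in all its cells, and the title of the study calls the mdx muscle regenerated. The labels name no strain for the normal mice and do not say that each array had its own animal. The p-values therefore cover the spread between these samples only, which may be technical.

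Muscle identity is set by 4 basic helix-loop-helix (bHLH) factors. MyoD, encoded by Myod1, and Myf5 commit precursor cells to the muscle lineage, myogenin, encoded by Myog, drives their differentiation into fibres, and Myf6, also called MRF4, is the member most abundant in adult fibres. Each binds DNA as a dimer with an E protein at a short element called the E-box, and the MEF2 factors, which are MADS-box proteins, act with them on muscle genes. Id proteins have the helix-loop-helix but no basic region, so that they capture E proteins in dimers that cannot bind DNA and thereby hold back differentiation. Outside muscle, Id proteins are made by many cell types, among them endothelial and immune cells.

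Myog and Id2 had the largest log2 changes among the member probe sets tested, both upward in mdx. Their promoters are shown for that reason, with that of Id3, an Id gene that did not pass the test. Of the 10 genes, 7 had a window of 250 bases before and 50 bases after an annotated start in RefSeq (build GRCm38.p6). Each sequence runs 5′ to 3′ on the strand of the gene, and capitals mark the E-box CANNTG, the sequence GGCGCC, and the MEF2 motif with its last base left free, each searched on both strands.
Myog, chr1:134289754-134290053, + strand: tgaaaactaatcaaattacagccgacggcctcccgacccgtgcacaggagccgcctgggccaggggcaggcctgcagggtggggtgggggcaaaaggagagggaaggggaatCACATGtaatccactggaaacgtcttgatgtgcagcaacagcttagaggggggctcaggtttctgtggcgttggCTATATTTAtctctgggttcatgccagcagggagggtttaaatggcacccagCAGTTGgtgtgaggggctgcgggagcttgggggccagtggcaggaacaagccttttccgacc
Id2, chr12:25096043-25096342, - strand: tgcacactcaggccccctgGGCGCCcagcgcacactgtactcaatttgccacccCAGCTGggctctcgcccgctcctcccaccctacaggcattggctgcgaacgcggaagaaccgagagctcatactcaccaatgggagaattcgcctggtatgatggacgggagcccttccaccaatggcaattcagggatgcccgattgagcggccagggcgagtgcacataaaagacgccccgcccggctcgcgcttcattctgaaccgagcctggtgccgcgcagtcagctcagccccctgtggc
Id3, chr4:136143572-136143871, + strand: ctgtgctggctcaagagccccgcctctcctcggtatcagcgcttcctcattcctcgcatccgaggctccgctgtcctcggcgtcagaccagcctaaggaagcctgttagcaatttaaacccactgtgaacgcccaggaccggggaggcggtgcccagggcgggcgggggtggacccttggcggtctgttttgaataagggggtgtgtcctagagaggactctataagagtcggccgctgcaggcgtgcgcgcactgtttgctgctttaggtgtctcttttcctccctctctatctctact
The Myog window held the E-boxes CACATG, from -138 to -133, and CAGTTG, from -12 to -7, with the annotated start counted as 0. Between them, from -64 to -56, stood CTATATTTA, a match to the relaxed MEF2 motif, while the strict MEF2 motif was not in the window. The Id2 window held 1 E-box, CAGCTG, from -196 to -191, and GGCGCC, from -231 to -226. None of these motifs was in the Id3 window. An E-box of any kind was in 72.3% of all 32851 windows in the table, CAGCTG (a special case of it) in 16.3%, GGCGCC in 11.9%, the strict MEF2 motif in 3.19% and the relaxed one in 7.70%. These matches describe the sequence, and binding was not measured.

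Each probe set has a deposited intensity on a linear scale, compared here as log2(intensity + 372.4). A log2 change is the mdx mean minus the control mean, given with its standard error (SE) from a limma fit over all 7612 probe sets bright enough to test, and adjusted p-values are over all of these. The added term shrinks the log2 change of dim genes, so log2 changes of dim and bright genes cannot be ranked by size. Ratios of mean intensities are therefore given beside the log2 change for Myog, Myod1, Id2 and Myf5, and mean intensities for some list genes. Of the 13 member probe sets 12 were tested, and 5 of them changed (41.7%, against 33.6% of all probe sets tested, or 33.1% with a smaller added term of 156.8 that left the members' count at 5). Among these, 3 rose, against 15.8% of all probe sets, and 2 fell, against 17.8%. The intensities of mdx and control did not overlap for 4 of the 12, or 33.3%, against 25.1% of all. The median log2 change was 0.04 over the 12 and -0.03 over all probe sets tested. These shares of the members lay near those of all probe sets, and the values of the single genes follow.

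Facts of the arrays bear on all values. The mean intensity after trimming 2% from each end was between 800.7 and 800.9 on 9 arrays and 723 on mdx replicate 1. Between 19.7% and 22.6% of values were below 0 in mdx, against 22.8% to 23.9% in control. For actin, the intensity at the 3′ end over that at the 5′ end, a sign of RNA quality, was 1.02 ± 0.0484 in mdx and 1.13 ± 0.0385 in control (SD, n = 5 each, exact permutation p = 0.0159, two-sided). Their part in the results was not tested. Scaling to the 9 hybridization control probe sets, in place of the whole array, gave a median log2 change over all probe sets of 0.35 in place of -0.03, and 3527 higher and 125 lower calls in place of 1202 and 1352. Small changes therefore depend on the scaling for their direction. The fibre markers fitted the label of the tissue, with Acta1, the skeletal actin, at 18378 in mdx and 27760.2 in control, and Myh4, the fast myosin heavy chain, at 22280 in mdx and 31743 in control.

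Myogenin was higher in mdx muscle. Myog (103053_at, chromosome 1) gave intensities of 2510.1, 1846, 2401, 2551 and 2335 on mdx arrays 1 to 5, against 942, 482, 725, 367 and 342 on control arrays 1 to 5. The lowest mdx array stood well above the highest control array. The mean was 2329 ± 283 in mdx and 572 ± 257 in control (SD, n = 5 each), a ratio of 4.07. On the log2 scale the rise was 1.55 (SE 0.16) with a limma adjusted p of 1.25e-05. Among the mdx arrays replicate 2 lay below the other 4, which were between 2335 and 2551.

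Myod1 rose as well, by a smaller amount. Myod1 (102986_at, chromosome 7) gave 2000.1, 2823, 2805, 3685 and 2681 in mdx, against 1551, 1314, 1314, 1362 and 1287 in control. Every mdx array was above every control array, and the mdx arrays were spread further apart than the control arrays. The mean was 2799 ± 599 in mdx and 1366 ± 107 in control, a ratio of 2.05. On the log2 scale the rise was 0.85 (SE 0.12) with a limma adjusted p of 0.00015. The SD of the log2 values was 0.28 in mdx and 0.09 in control.

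Myf5 and Myf6, which lie side by side on chromosome 10, did not pass the test. Myf5 (101162_at) gave 211, 79.7, 226, 190.1 and 257 in mdx, against 53.8, 115, 58.8, 142 and 96.9 in control. It was dim throughout, with a ratio of means of 2.06 that rests on control values under the noise level. All 5 control arrays and mdx replicate 2 lay below the noise level of 156.8, and the probe set entered the test because 4 mdx arrays and 1 control array were above the filter of 134.2. Its log2 change was 0.27 (SE 0.10, 95% interval 0.05 to 0.50, limma adjusted p = 0.0619), and without mdx replicate 2 it was 0.35 with a limma adjusted p of 0.014. Scaled to the hybridization controls Myf5 passed, at 0.43 (limma adjusted p = 0.00509), which is 0.09 above the median of all probe sets under that scaling. Myf6 (102265_at) was bright in both groups, with 4998, 6223, 4095, 3506 and 6325 in mdx and 4949, 5803, 4652, 5929 and 6089.7 in control. The groups overlapped over most of their range. Its log2 change of -0.14 had a 95% interval of -0.46 to 0.18 (limma adjusted p = 0.505), and its sign turned under scaling to the hybridization controls (0.45, limma adjusted p = 0.0544).

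The changes of the bHLH factors were unequal. The log2 value of one factor minus that of another on the same array was compared between mdx and control by a two-sided exact permutation test. Its p-values were adjusted by Benjamini-Hochberg for the 10 pairs within the bHLH, Id and MEF2 families, and the smallest p this design allows is 0.00794. Such a difference still depends on the scaling through the added term of 372.4, which weighs most on dim genes. Myog minus Myod1 was -0.22 in mdx and -0.92 in control, so that Myog changed by 0.70 more than Myod1 (exact adjusted p = 0.0159). The mdx arrays lay between -0.53 and 0.28 and the control arrays between -1.23 and -0.55, narrowly apart. This call was lost without mdx replicate 1, at 0.58 and an exact adjusted p of 0.0529. Myog changed by 1.69 more than Myf6, and Myod1 by 0.99 more than Myf6 (exact adjusted p = 0.0159 for both). The 3 pairs with Myf5 are no measure of a difference between the factors, because no control array of Myf5 reached the noise level and the added term holds its log2 value nearly fixed. Their differences were 1.28 for Myog minus Myf5, 0.58 for Myod1 minus Myf5 and 0.42 for Myf5 minus Myf6. Scaled to the hybridization controls they were 1.57, 0.94 and -0.019.

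**Figure D1:**
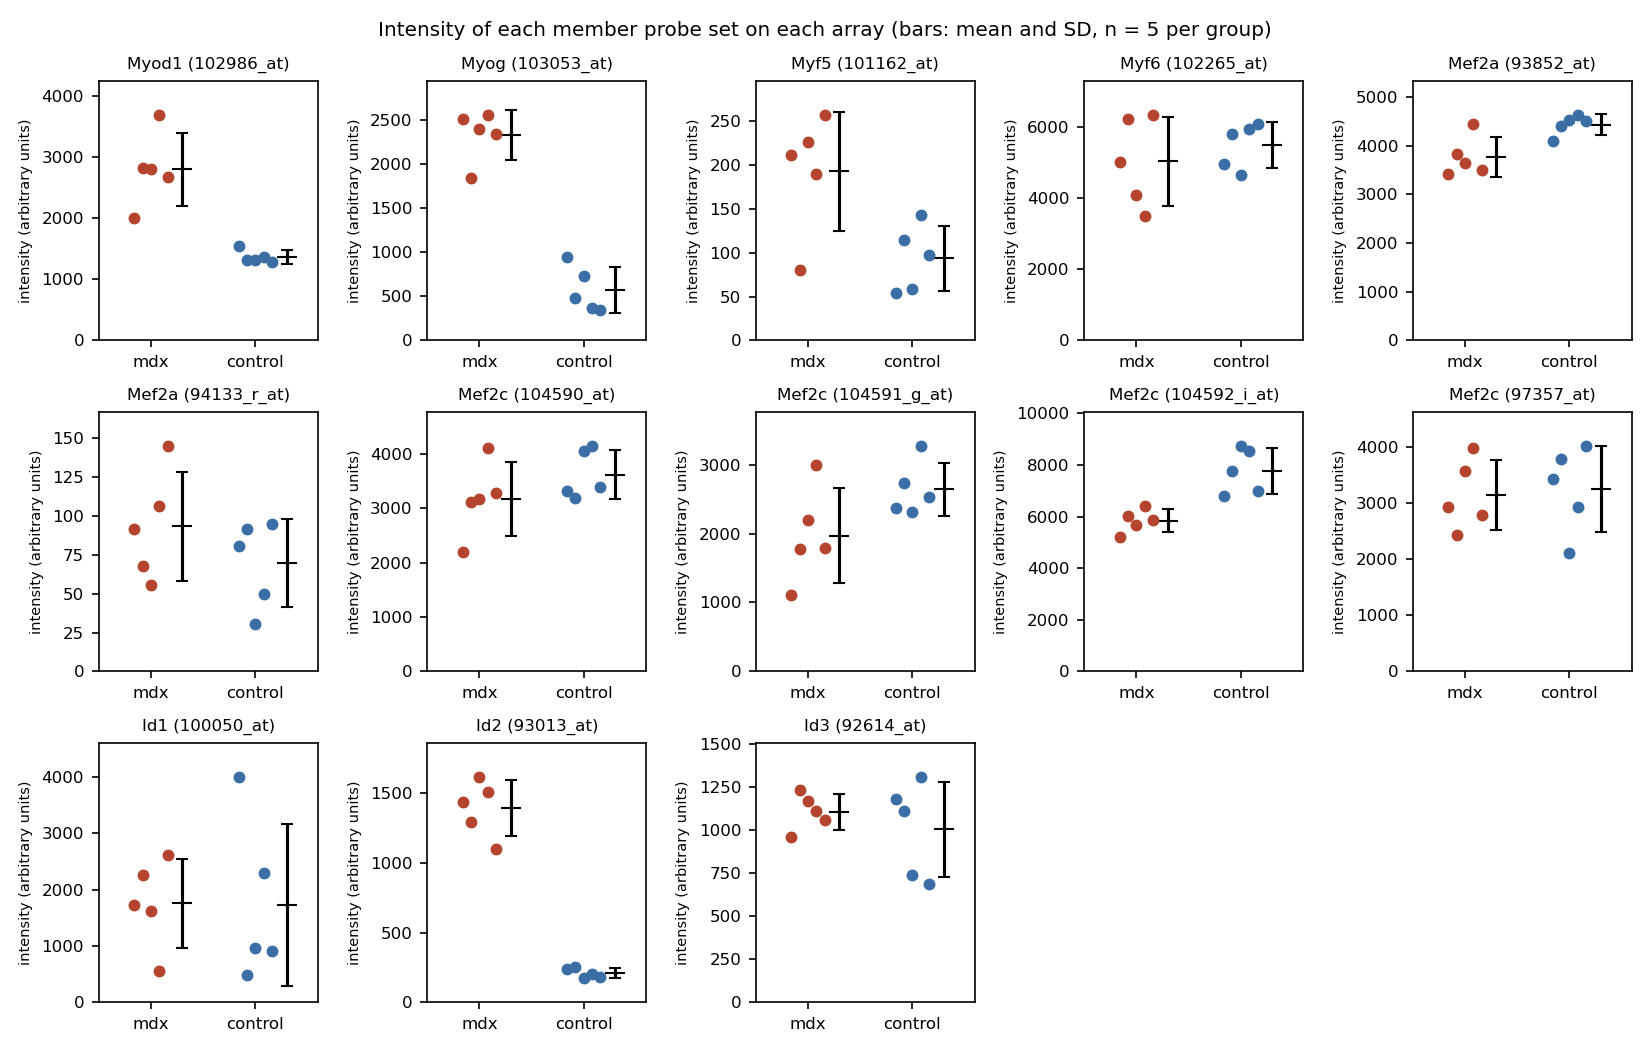
Intensity (arbitrary linear units, axes from 0) of the 13 member probe sets on the 5 mdx arrays and the 5 control arrays, 1 point per array, with the mean and SD as bars. Myod1, Myog and Id2 lie apart upward in mdx, Mef2c by 104592_i_at lies apart downward as deposited (its log2 change turned to 0.22, not passed, with the hybridization controls), and Id1 ranges from 479 to 3990.5 in control.

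Id2 was the member with the smallest p, at rank 61 among the 7612 probe sets. Id2 (93013_at, chromosome 12) gave 1441, 1295, 1616, 1509 and 1099 in mdx, against 241, 256, 172, 205 and 184 in control. The control arrays lay close above the noise level of 156.8, and every mdx array was far above all control arrays. The mean was 1392 ± 201 in mdx and 212 ± 36 in control, a ratio of 6.58. On the log2 scale used here the rise was 1.59 (SE 0.10) with a limma adjusted p of 1.56e-07. With the noise level as the added term it was 2.07 (limma adjusted p = 1.61e-07), since the added term of 372.4 exceeds the control intensities. Under the alternatives tried it ranged from 1.16 to 2.07 and was called in each of them.

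Id1 and Id3 did not pass the test, and Id1 varied far more between arrays than Id3. Id1 (100050_at, chromosome 2) gave 1729, 2258, 1613, 556 and 2612 in mdx, against 3990.5, 479, 959.6, 2301 and 912 in control. The highest and the lowest of the 10 values were both control arrays. Its log2 change of 0.17 had a 95% interval of -0.74 to 1.08 (SE 0.42, limma adjusted p = 0.798), which is wide in both directions. The highest control array was 8.33 times the lowest, and the SD of the log2 values was 0.66 in mdx and 0.94 in control, against medians of 0.17 and 0.16 over the 1638 probe sets within 0.5 of its mean level. Of these, 98.8% had a lower SD in mdx and 99.7% a lower SD in control. Id3 (92614_at, chromosome 4) was steadier, at 958, 1231, 1167, 1108 and 1056 in mdx and 1177, 1111, 741, 1305 and 684 in control. The mdx values fell inside the control range. The log2 change was 0.12 with a 95% interval of -0.16 to 0.41 (limma adjusted p = 0.516), and scaled to the hybridization controls it was 0.60 (limma adjusted p = 0.00661), 0.25 above the median of all.

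The change of Id2 was set against those of its relatives on the same arrays. Id2 minus Id3 within an array was between 0.04 and 0.45 in mdx and between -1.54 and -0.92 in control, a difference in change of 1.47 (exact adjusted p = 0.0159). Id2 changed by 1.42 more than Id1 (exact adjusted p = 0.0454), with the groups overlapping. This call was lost with an added term of 2 times 372.4 (1.03, exact adjusted p = 0.0595), after quantile normalization (1.37, exact adjusted p = 0.0567), scaled to the hybridization controls (1.29, exact adjusted p = 0.0567), and without any 1 of mdx replicates 1, 3 and 4 or control replicates 1, 3 and 4, where the difference was 1.11 to 1.5. Between Id1 and Id3 the difference in change was 0.04 (exact adjusted p = 0.897).

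**Figure D2:**
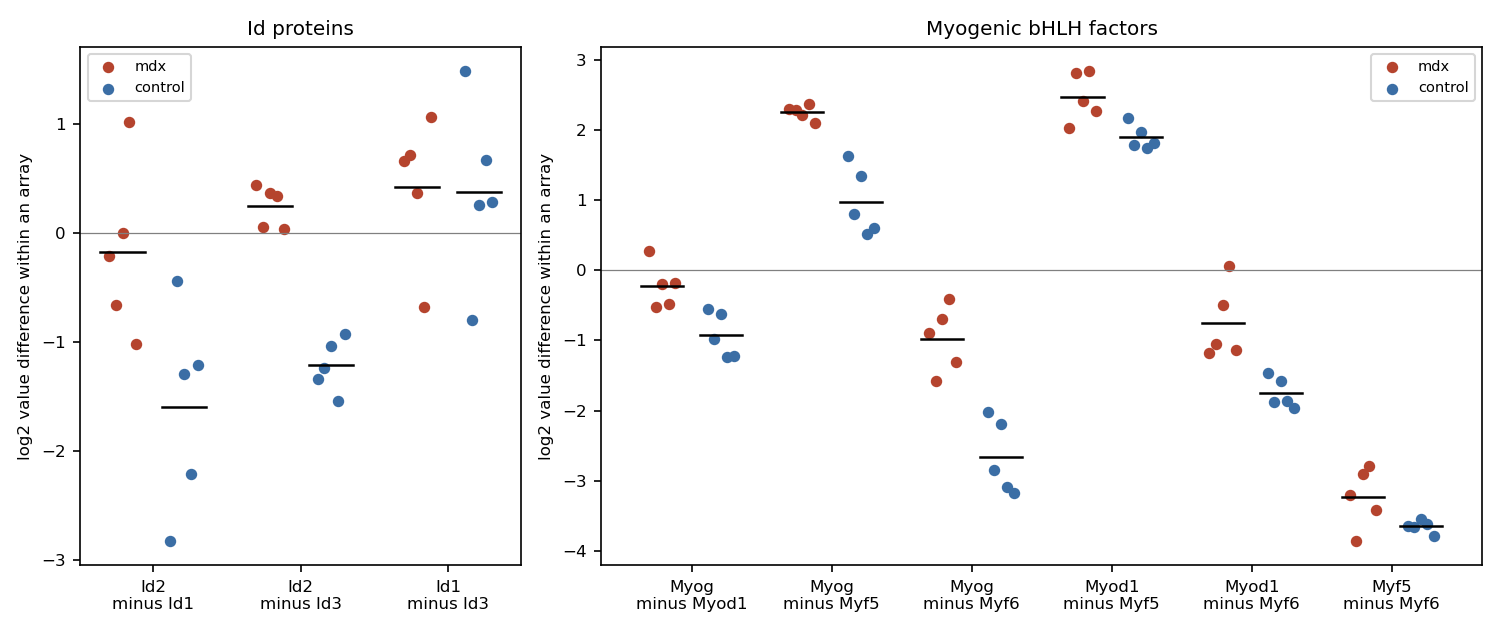
Log2 value of one member minus that of a relative on the same array (vertical axis, log2 units) for the Id proteins and the bHLH factors (Myf5 under the noise level in control), 1 point per array and a line at each group mean. For Id2 minus Id3 the mdx arrays lie at 0.04 to 0.45 and the control arrays at -1.54 to -0.92, and Id1 minus Id3 overlaps between the groups.

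**Figure D3:**
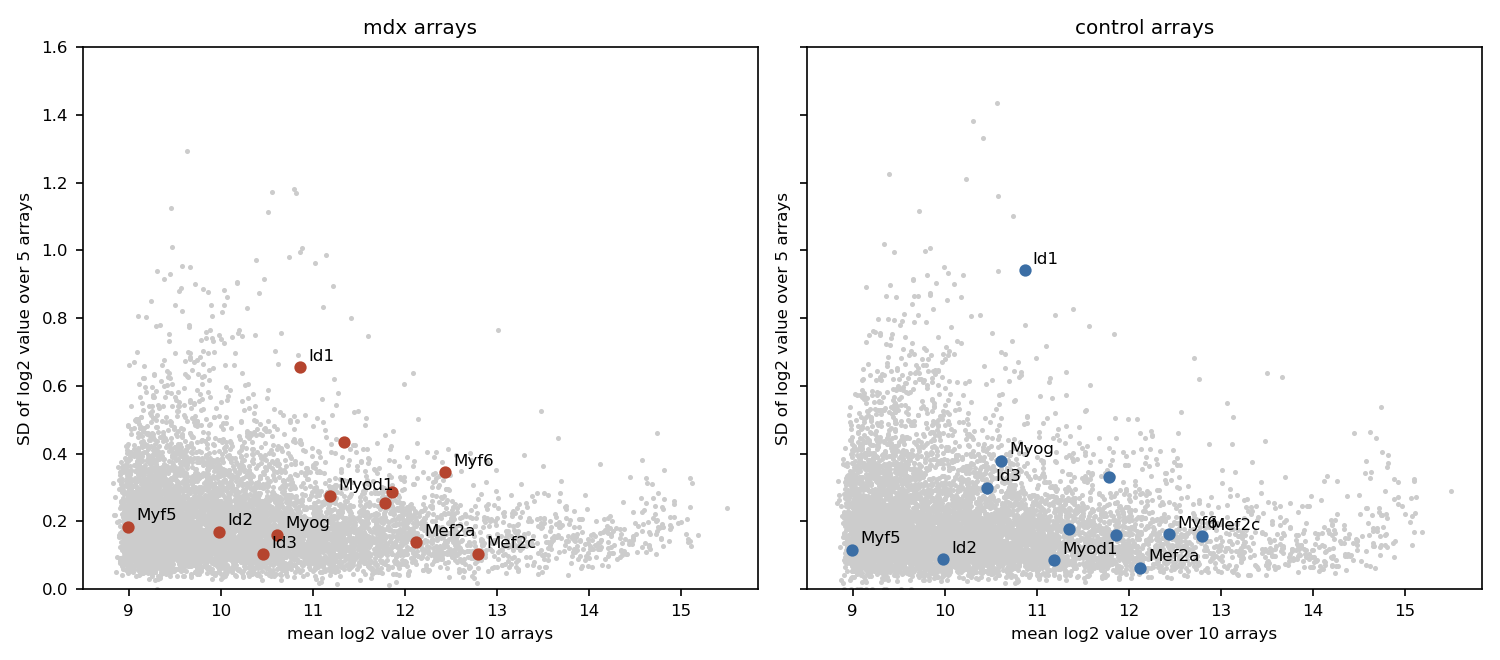
SD of the log2 value over the 5 mdx arrays and over the 5 control arrays (vertical axis) against the mean log2 value over all 10 arrays, for each of the 7612 probe sets tested (grey) and the 12 member probe sets (coloured, gene names beside the brightest of each gene). Id1, at 0.66 in mdx and 0.94 in control, lies above nearly all probe sets of its level.

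Of the 5 tested probe sets of the MEF2 factors 2 were called lower in mdx, and the signs of all 5 turned under scaling to the hybridization controls. Mef2a (93852_at, chromosome 7) gave 3419, 3829, 3642, 4452 and 3504 in mdx, against 4092, 4406, 4536, 4625 and 4514 in control. Replicate 4 of mdx reached into the control range. The log2 change was -0.22 (SE 0.08, limma adjusted p = 0.0467), a call lost with equal trimmed means (-0.19, adjusted p = 0.0572) and after quantile normalization (-0.11, 0.269), by the exact permutation test (exact adjusted p = 0.0707) and without the variance trend (0.0661), and with the sign turned (0.37) under scaling to the hybridization controls. Without any 1 of control replicates 2 to 5 or mdx replicates 1, 2, 3 and 5 it did not pass either, at -0.23 to -0.19. The other probe set of Mef2a (94133_r_at) was below the noise level on all 10 arrays, between 55.8 and 145 in mdx and between 30.3 and 95 in control, and was not tested.

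Mef2c on chromosome 13 had 4 probe sets, which gave different results. The brightest (104592_i_at) gave 5221, 6022, 5696, 6430.1 and 5859 in mdx, against 6810.1, 7755, 8729, 8562 and 6992 in control. No mdx array reached the lowest control array, and the log2 change was -0.39 (SE 0.09, limma adjusted p = 0.00419), with the sign turned (0.22, adjusted p = 0.17) under scaling to the hybridization controls. In the naming of the array maker the suffix _i marks a set with fewer unique probes than the standard. The 3 others did not pass. Their log2 changes were -0.41 for 104591_g_at (1970 ± 695 in mdx and 2640 ± 385 in control, adjusted p = 0.103), -0.19 for 104590_at (adjusted p = 0.307) and -0.03 for 97357_at (adjusted p = 0.9). Without mdx replicate 4, 104591_g_at was called lower (-0.55, limma adjusted p = 0.016), and without mdx replicate 1 it stood at -0.25 and did not pass. Scaled to the hybridization controls, 97357_at was called higher (0.53, limma adjusted p = 0.0392), while 104590_at stood at 0.39 and 104591_g_at at 0.14 and did not pass. Relative to the median of all probe sets under the same scaling, the 4 ranged from -0.37 to 0.00 as deposited and from -0.20 to 0.18 with the hybridization controls. Mef2a and Mef2c by their brightest probe sets did not differ past the threshold in their change (0.17, exact adjusted p = 0.0595). They did without mdx replicate 5 (0.19, exact adjusted p = 0.0397) and without control replicate 5 (0.21, exact adjusted p = 0.0265). They also did with an added term of 2 times 372.4 (0.16, exact adjusted p = 0.0454). In 20 of the 23 alternatives the difference did not pass, and it ranged from -0.19, with 97357_at standing for Mef2c, to 0.21.

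**Figure D4:**
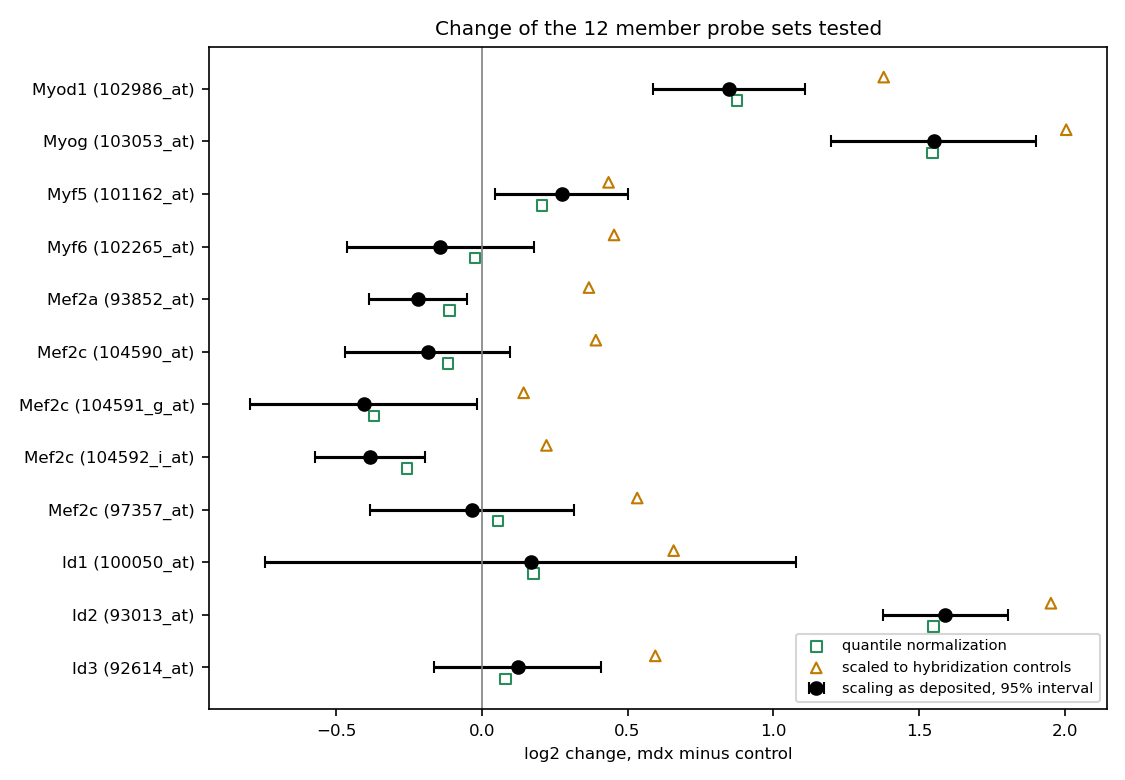
Log2 change, mdx minus control (horizontal axis), of the 12 member probe sets tested, with the 95% interval of the fit (black), after quantile normalization (squares) and scaled to the hybridization controls (triangles). Myod1, Myog and Id2 lie above 0 under all 3 scalings, while the 5 probe sets of Mef2a and Mef2c lie at or below 0 as deposited and above it with the hybridization controls.

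Genes that work with the members were read from lists, by the brightest probe set of each gene. Over all 5767 genes tested, 34.6% were called, 16.0% higher and 18.6% lower. Of 15 bHLH partners and repressors 1 rose and 3 fell, with a median log2 change of 0.05. The E proteins that pair with the myogenic factors were among the 11 that did not pass, Tcf3 at 0.05, Tcf4 at 0.17 and Tcf12 at 0.13. Hes6, an inhibitor of Hes1 that favours differentiation, was 590 ± 108 in mdx and 235 ± 113 in control, and rose by 0.68 on the log2 scale (SE 0.14, limma adjusted p = 0.00217). Hes1, the Notch target that represses bHLH genes, fell by 0.35 (adjusted p = 0.00436), Bhlhe40 by 0.34 and Tcf15 by 0.52. The signs of Hes1 and Bhlhe40 turned under scaling to the hybridization controls, where the call of Tcf15 was lost (-0.24), as it was by the exact permutation test (exact adjusted p = 0.0522).

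Of 19 MEF2 paralogs, cofactors and deacetylases, 9 fell, 0 rose and 10 did not pass, with a median of -0.33. Mef2d, a paralog abundant in fibres, was 5359 ± 366 in mdx and 7880 ± 479 in control (-0.53, SE 0.07, limma adjusted p = 0.000102), and the acetyltransferases Crebbp and Kat2b changed by -0.81 and -0.53. Tead1, a factor that binds muscle gene promoters, changed by -0.54, and Ppp3ca, the catalytic chain of calcineurin, by -0.77. Under scaling to the hybridization controls 6 of the 19 were called higher and 1 lower, with Mef2d at 0.078 and Kat2b at 0.019, Tead1 (-0.011) and Ppp3ca (-0.21) no longer called, and the list median of 0.11 lay below that of all probe sets by 0.23. The deacetylases Hdac2 (-0.09), Hdac3 (-0.40), Hdac5 (-0.13) and Hdac7 (0.05) did not pass.

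Among 16 other transcription factors of muscle precursors 3 rose and 3 fell (median -0.02). Runx1, which muscle fibres make when they lose innervation, was 831 ± 195 in mdx, while no control array reached the noise level. This makes Runx1 at least 5.18-fold higher (limma adjusted p = 6.48e-07), and it entered the test through its mdx arrays alone. Sox11 (457 ± 118 in mdx and 67.2 ± 53.6 in control, log2 change 0.91) and Meox1 (0.42) rose. Six2 fell by 1.27, and Nfix, a factor of the switch to fetal muscle, by 0.50, although another probe set of Nfix stood at -0.09 and its sign turned under scaling to the hybridization controls. Pax3, the relative of Pax7, was at 309 ± 107 in mdx and 314 ± 68.8 in control (-0.02, adjusted p = 0.924).

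Id genes are known targets of bone morphogenetic protein (BMP) signals. Of 18 genes of this pathway 3 rose and 2 fell, with a median of -0.03. The intracellular mediator Smad1 was 1279 ± 137 in mdx and 863 ± 69.6 in control (0.42, SE 0.08, limma adjusted p = 0.00201), and its other probe set also rose, by 0.43. The secreted protein Fstl1 rose by 1.33, and Bmp1, which despite its name is a procollagen protease, by 0.63. The ligand Bmp4 fell by 0.59, with another probe set at -0.11. Acvrl1, a receptor known from endothelium, fell by 0.87, but its other probe sets did not pass, at 0.12 and 0.23. Scaled to the hybridization controls, Bmp4 (-0.059) and Acvrl1 (-0.30) were no longer called, and Bmp4 did not pass the exact permutation test either (exact adjusted p = 0.0522). The inhibitory Smad6 and Smad7, which BMP signals induce, stood at -0.18 and -0.02 and did not pass.

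Muscle genes of differentiation and of the neuromuscular junction, among them known targets of the bHLH and MEF2 factors, changed in both directions as deposited. Of 34 tested, 17 rose, 10 fell and 7 did not pass, with a median of 0.32. Scaled to the hybridization controls 22 rose and 1 fell, with a median of 0.72 against 0.35 over all probe sets. By the exact permutation test 13 rose and 5 fell, where 25.1% of all probe sets were called in either direction. The embryonic light chain Myl4 was 8759 ± 1813 in mdx and 990.2 ± 136 in control (log2 change 2.73, SE 0.13, limma adjusted p = 2.19e-08), and its other probe set rose by 3.40. The acetylcholine receptor chain Chrna1 rose by 2.37, the ankyrin repeat protein Ankrd1 by 2.29 and the troponin of immature muscle Tnnt2 by 1.82. Ankrd2, a stretch-responsive relative of Ankrd1, fell by 1.73. Of these 34 genes, 12 also stand in the lists of cell types below.

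**Figure D5:**
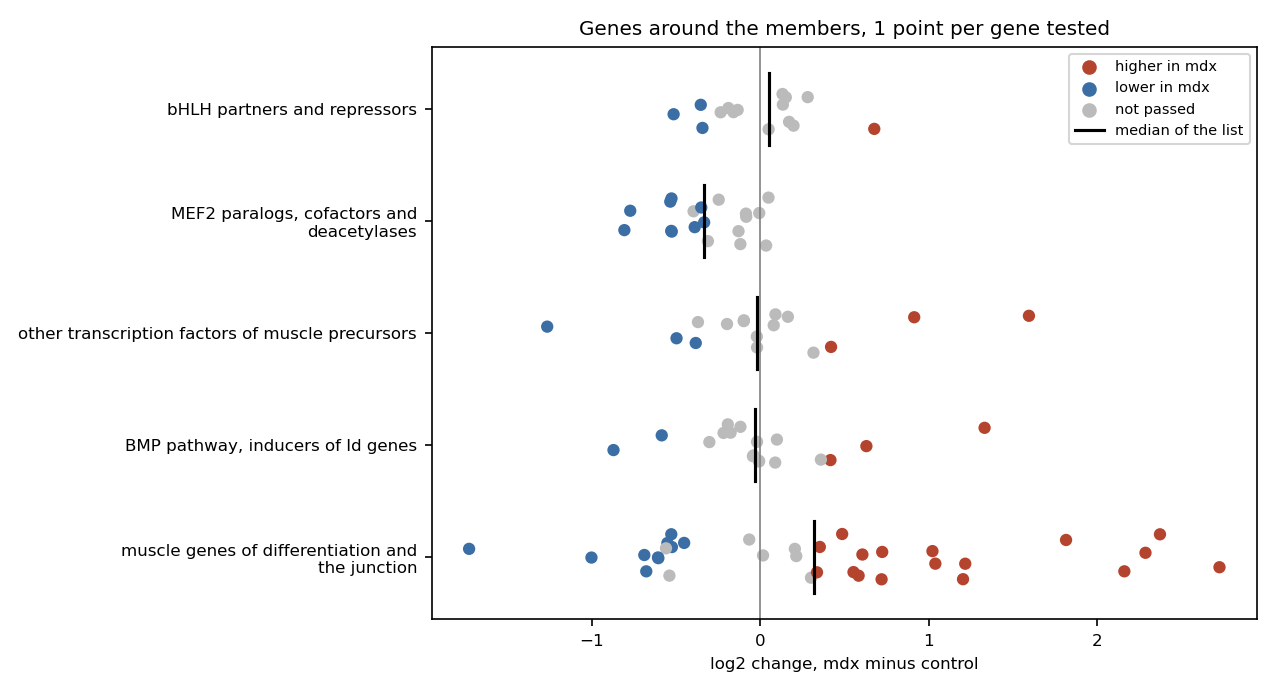
Log2 change, mdx minus control (horizontal axis), of each tested gene of the 5 pathway lists, 1 point per gene, red where called higher, blue where called lower and grey where not passed, with a line at the median of each list. The MEF2 list has 9 of 19 genes called lower and its median at -0.33, which scaling to the hybridization controls turned to 0.11 with 6 higher and 1 lower, and the muscle list spreads from -1.73 to 2.73.

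Muscle pieces hold several cell types, and in bulk RNA fewer cells of a type and less RNA per cell cannot be told apart. Of 15 macrophage markers 13 rose and 0 fell, with Lgals3 at least 60.8-fold higher, Ctss at 3.63 and Tyrobp at 3.22 on the log2 scale. Mean intensities were 13443 in mdx and 749 in control for Ctss, and 5459 and 253 for Tyrobp. The summed intensity of the markers was 69097 to 91466 in mdx and 7057 to 11965 in control. The integrin chain Itgam was below the noise level on all arrays. Of 11 fibroblast markers 8 rose and 2 fell, with sums of 91426 to 105618 in mdx and 45889 to 58416 in control. The log2 changes were 3.81 for Postn, 1.63 for Lum and 1.06 for Mfap5, whose other probe set stood at 0.23 and did not pass. Those that fell were Pdgfra (-0.27) and Dcn (-0.34), and 0 fell by the exact permutation test or with the hybridization controls. The part of these cell types in the rise of Id2, Myog and Myod1 was not tested.

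Markers of satellite cells and myoblasts gave sums that overlapped, 12326 to 16833 in mdx and 12442 to 15257 in control. Much of each sum was Des, the marker called lower, at 6609 ± 970 in mdx and 9153 ± 1017 in control. The overlap is therefore no measure of the other markers. Des is also in the sums of smooth muscle cells and pericytes below. Of 8 tested 4 rose and 1 fell, Nes rose by 1.11, Vcam1 was at least 2.42-fold higher, and Itga7 rose by 0.55 with its other probe set at 0.10 and not passed. Cdh15, the M-cadherin of satellite cells, stood at 0.30 (adjusted p = 0.0627), and Met, Calcr and Dll1 were below the noise level on all 10 arrays. Of 11 endothelial markers 2 rose, among them Cd34 (0.38), and 2 fell, Flt1 by 0.61 and Vwf by 0.54, with sums of 7568 to 9453 in mdx and 8669 to 10481 in control. Both falls were lost with the hybridization controls (Flt1 -0.16, Vwf -0.21), and neither Vwf (exact adjusted p = 0.0522) nor Cd34 (0.0707) passed the exact permutation test. The 9 markers of smooth muscle cells and pericytes gave 2 higher and 3 lower, with Acta2 at 1.23, Des at -0.45 and Myh11 at -0.41, and sums of 16022 to 19873 in mdx and 15775 to 19551 in control, and the call of Myh11 was lost with the hybridization controls (-0.051). Of 19 markers of mature fibres, fast and slow, 15 fell and 0 rose, with a list median of -0.55. Those with the smallest p, all genes of slow fibres, fell further, Myl3 by 1.83, Myl2 by 1.68 and Myh7 by 1.56. Myh4 (-0.48) and Acta1 (-0.56) did not pass, though another probe set of Myh4 was called lower (-0.46). The sums of this list overlapped, at 264114 to 372852 in mdx and 364574 to 577821 in control. Scaled to the hybridization controls, 4 of the 19 fell and 0 rose. Ckm fell by 0.55, and its sign and that of Des turned under scaling to the hybridization controls. Ckm did not pass the exact permutation test (exact adjusted p = 0.0522). Of 6 genes listed for lymphocytes 2 rose, Ptprc, which macrophages also make, by at least 2.38-fold and Jchain by 0.43, and 2 fell. Ighm fell by 0.65 (no longer called with the hybridization controls, at -0.058), with probe sets of Ighm ranging from -2.04 to 0.45. Cd4 changed by -0.89 (limma adjusted p = 0.00724), with 4 mdx arrays below the noise level. The sums of this list were 4655 to 6181 in mdx and 6599 to 11581 in control, and Cd3e, Cd3g and Cd8a were below the noise level on all arrays. Of 4 nerve and skin markers Mbp fell by 0.72, while its other probe set rose by 0.44, with sums of 3961 to 4763 in mdx and 4129 to 6771 in control and with Krt5, Krt14 and Nefl below the noise level throughout. The call of Mbp was lost in 13 of 23 alternatives, among them no filter (limma adjusted p = 0.12), equal trimmed means (0.0504), the hybridization controls (-0.33, limma adjusted p = 0.208) and any 1 of the mdx arrays or control replicates 1, 3 and 4 left out.

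The genes whose profile lay nearest to that of a member were found by the root mean square distance between log2 values over the 10 arrays, each gene centred on its own mean, among 5766 other genes. For Id2 they were Sirpa (0.11), Mrc1 (0.13) and Pltp (0.13), for Myog they were Lat2 (0.19), Gatm (0.20) and Cma1 (0.21), and for Myod1 they were Lmna (0.09), Ppib (0.10) and Antxr2 (0.11). Mrc1 was 1385 ± 190.3 in mdx and 191 ± 61.1 in control, and Lmna was 6332 ± 1060 in mdx and 3510 ± 425 in control. This distance is small for any pair of genes that differ between the groups by a like amount, and it is given as a description.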

How the data were processed

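Gene expression was measured on 10 oligonucleotide arrays. The deposited intensity values form 1 table of 12488 probe sets on a linear scale, with 27659 values below 0. The software behind background correction and scaling is not given in the sources used. The 66 control probe sets were left out. Platform annotation gave 1 gene to 10833 probe sets, several to 396 and none to 1193, and 0 symbols changed when looked up by gene number.

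Values under 0 were raised to 0 before taking log2(intensity + 372.4), where 372.4 is the root mean square of the values below 0. That figure is drawn up by a few strongly negative values, so the noise level used to judge dim genes is 156.8, from their median size. A probe set was tested when above 134.2, the 40th percentile, on at least 5 arrays. Runx1, Lgals3, Vcam1 and Ptprc met this on their mdx arrays alone, the group where they were high. Their p-values are therefore no support beyond the fold bounds given. The test was two-sided, by lmFit and trended eBayes of limma 3.58.1 (R 4.3.3), with a Benjamini-Hochberg threshold of 0.05, and the code was tested on simulated data. For a gene under the noise level on every array of a group, the fold is a lower bound, the geometric mean of the brighter group over that level. The brightest probe set stands for a gene in the lists. Precision is limited by having 5 arrays a group.

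The named genes are every member probe set, up to 5 called genes with the smallest p of each pathway list, up to 3 of each cell type list, Acta1, Ckm and Myh4, and the 3 genes nearest in profile to each of the 3 called members with the smallest p. Smad6 and Smad7, E proteins, deacetylases, Pax3, Cdh15, Cd4, Pdgfra, Dcn and genes at the noise level were named besides, after their values were seen. The members and lists were chosen with earlier results of these data known. Alternatives covered the added term, the filter, the scaling, the variance model, the exact permutation test, a replicate block and each array left out.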

Additional observations from a re-analysis of the deposited data

Results flagged for a closer look

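Among 122 groups of 5 arrays examined, over the member probe sets and the named genes, 9 held an array whose gap to the nearest of the others took up more than 0.71 of the whole range on the log2 scale. Chance gives this in about 1 group in 20. Of the members, Myog was lower on mdx replicate 2, at 1846, than on the other mdx arrays, at 2335 to 2551. Tcf15 was at 290.1 on mdx replicate 3 and between 165 and 197 on the others. Tead1 was at 1036 on mdx replicate 1, against 1350.1 to 1470 on the others, and Sox11 at 665 on mdx replicate 5, against 379.8 to 444. In control, replicate 3 was the lowest for Acvrl1 (3647, others from 4464) and for Mfap5 (1748, others from 2022), and replicate 4 for Myl3 (13481, others from 15145). Ighm was at 2910 on mdx replicate 1, against 4019 to 4326 on the others, and at 9531 on control replicate 1, against 5350 to 6281.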

How the results depend on the processing

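Myog, Myod1 and Id2 were called higher under all 23 alternatives, with log2 changes of 1.24 to 2.0, 0.73 to 1.38 and 1.16 to 2.07. The count of member probe sets called lower was 2 as reported. It was 1 with equal trimmed means, after quantile normalization, without the variance trend and by the exact permutation test, and 1 to 3 when single arrays were left out, where the count called higher was 3 to 4. Scaling to the hybridization controls gave 7 higher and 0 lower among the members, 83 higher and 8 lower among the listed genes (53 and 45 as reported), and 3527 higher and 125 lower over the whole table. It turned the sign of 15 named probe sets, Myf6 (0.45), Mef2a (0.37), Mef2c by 104592_i_at (0.22) by 97357_at (0.53), by 104590_at (0.39) and by 104591_g_at (0.14), Hes1 (0.13), Bhlhe40 (0.20), Mef2d (0.078), Kat2b (0.019), Nfix (0.082), Des (0.16), Ckm (0.073), Acta1 (0.068) and Myh4 (0.15), and ended 10 other calls of named genes, all lower. Genes named besides are not in these counts of named probe sets. The median of all probe sets under this scaling was 0.35. Listed genes called lower numbered 26 by the exact permutation test, whose smallest p is 0.00794. That test called 25.1% of all probe sets in either direction, against 33.6% as reported. The noise level as the added term was chosen after seeing the data and gave 2520 calls against 2554, with 3 members higher and 2 lower.

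Replicate numbers did not pair the arrays. Same-numbered arrays had correlations of their deviations between -0.16 and 0.04. With the replicate block 2238 probe sets were called, with 3 members higher and 2 lower. These were not all the same calls, since Mef2a lost its call (adjusted p = 0.0716) and Mef2c by 104591_g_at gained one (-0.41, adjusted p = 0.0435). In a paired form of the exact test 0 of the 10 pairs of relatives passed, against 7 unpaired, 2 of them with Myf5. The smallest adjusted p by that paired test was 0.125. At an unadjusted p under 0.05 there were also 0. No pair of relatives could pass, since the smallest p that 5 pairs of arrays can give is 0.0625.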
